A study of Mus musculus with 23 samples.

Results

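Immediate early genes are transcribed within minutes of a stimulus from regulators that are already present, and many are also switched on when a tissue is taken apart. The 36 genes described here were picked by symbol from the 22517 named genes that both deposited expression tables hold: the AP-1 subunits, the Egr and Nr4a families, 4 Kruppel-like factors, 4 MAP kinase phosphatases and other rapid-response genes. They were selected with the stem cell against villus values of these same data known, so that contrast is given for them as a description and without a test. All 36 symbols were found in both tables.

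The RNA data cover 3 groups with 3 libraries apiece, all of the B6;129 mixed background, all from adult mice given tamoxifen at 1 to 2 mg on 5 days in a row, and all from the proximal part of the intestine. Intestinal stem cells (ISC) came from mice of genotype Eed+/+; Lgr5-EGFP-IRES-CREERT2, in which GFP and Cre are made by cells that use the Lgr5 gene. Eed-null villus came from EedF/F; Villin-CRE mice, in which Cre is driven by the promoter of an epithelial gene, and wild-type villus from EedF/F; Cre- mice, which carry the floxed allele but no Cre. Eed encodes part of the core of Polycomb repressive complex 2, the enzyme that places the repressive mark H3K27me3. Villus epithelium of both genotypes was loosened in 5 mM EDTA for 45 min at 4 °C and frozen. ISC were freed of villi by scraping, kept in the same EDTA for 45 min, taken apart in 4X TrypLE enzyme for 45 min at 37 °C and sorted for high GFP. Warm dissociation and sorting were applied to ISC alone, so handling and cell type cannot be told apart in any ISC value below. The study's question was what Polycomb repression does in adult intestinal cells, and the genes described here were not its stated subject.

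The tables hold 1 value per gene and group, in RPKM (reads scaled by gene length and by the number of mapped reads), with the authors' p and q. No value per library is given, so no spread between libraries can be shown and the depth is unknown. The authors' p and q are used as deposited, and they do not give that spread. Genes that the authors tested and gave a q of 0.05 or less count as called. The wild-type villus libraries stand in both tables, scaled separately, so the comparisons share their reference and each is given with its own villus value.

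In many cell types, growth factors, stress and mechanical force act through MAP kinases on serum response factor, ETS partners and CREB, which sit on immediate early promoters before the stimulus arrives. The first products are mostly transcription factors, AP-1 dimers of Fos and Jun proteins among them, followed by phosphatases and RNA-decay proteins that switch the response off again. In the intestine, Klf4 and Dusp6 are also known outside this response, Klf4 as a factor of differentiated epithelium and Dusp6 as a feedback phosphatase of ERK signalling.

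The promoters below are printed to show letter matches to the motifs of these factors, for 4 genes with high ISC values and for 2 whose ISC and villus values were near each other. They are the 200 bases before the RefSeq transcription start on build GRCm38.p6, read 5′ to 3′ on the gene's strand, with matches in capitals. Fos lies at chr12:85473690-85473889, plus strand, and its capitals are TGACG, a short cAMP response element, at 2 places, then the ETS core GGAAGT and last the TATA box TATAAA.
Fos: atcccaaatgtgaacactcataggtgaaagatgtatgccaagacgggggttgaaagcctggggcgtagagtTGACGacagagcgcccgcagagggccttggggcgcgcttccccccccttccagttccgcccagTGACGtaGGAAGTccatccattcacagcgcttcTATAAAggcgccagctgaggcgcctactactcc
Dusp1 lies at chr17:26508473-26508672, minus strand, and its capitals are a TGACG and the full cAMP response element TGACGTCA.
Dusp1: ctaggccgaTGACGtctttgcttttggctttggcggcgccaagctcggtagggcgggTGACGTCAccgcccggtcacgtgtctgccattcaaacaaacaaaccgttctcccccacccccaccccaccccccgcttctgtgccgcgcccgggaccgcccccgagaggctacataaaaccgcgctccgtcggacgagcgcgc
Ppp1r15a lies at chr7:45526269-45526468, minus strand, and its capitals are an ETS core, read on the other strand as ACTTCC, and a full cAMP response element that ends 5 bases before the start.
Ppp1r15a: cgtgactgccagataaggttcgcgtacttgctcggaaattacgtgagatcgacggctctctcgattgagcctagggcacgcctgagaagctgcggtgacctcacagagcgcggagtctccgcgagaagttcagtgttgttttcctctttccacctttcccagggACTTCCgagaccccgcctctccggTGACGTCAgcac
Cyr61, listed by RefSeq as Ccn1, lies at chr3:145649986-145650185, minus strand, and its capitals are CGTCA, which is TGACG on the other strand, and a TATA box.
Cyr61: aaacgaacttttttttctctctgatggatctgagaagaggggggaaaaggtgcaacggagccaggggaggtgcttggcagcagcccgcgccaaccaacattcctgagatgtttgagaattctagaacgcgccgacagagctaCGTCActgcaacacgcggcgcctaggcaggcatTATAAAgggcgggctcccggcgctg
Zfp36 lies at chr7:28379229-28379428, minus strand, and its capitals are the EGR site GCGGGGGCG and a CArG box, the binding site of serum response factor.
Zfp36: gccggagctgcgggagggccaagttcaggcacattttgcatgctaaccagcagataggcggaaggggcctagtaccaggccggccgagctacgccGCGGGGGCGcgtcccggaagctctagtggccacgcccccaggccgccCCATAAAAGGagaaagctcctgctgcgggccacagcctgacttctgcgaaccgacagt
Btg2 lies at chr1:134079156-134079355, minus strand, and its capitals are a full cAMP response element.
Btg2: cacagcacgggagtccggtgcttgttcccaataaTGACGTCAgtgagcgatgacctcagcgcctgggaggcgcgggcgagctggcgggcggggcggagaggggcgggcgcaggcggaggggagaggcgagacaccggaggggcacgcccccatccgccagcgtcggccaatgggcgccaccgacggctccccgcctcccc

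A promoter of 250 bases before to 50 bases after the start was given for 28 of the 36 genes, and Fosl1, Egr1, Egr3, Ier2, Klf10, Myc, Ctgf and Thbs1 have no entry. Both strands were searched. TGACG stood in promoters of 17 of the 28 genes (60.7%), against 23.0% of all 27025 genes with a promoter. The full TGACGTCA, every copy of which also holds TGACG, stood in Dusp1, Btg2, Maff and Ppp1r15a (14.3%), against 2.03% of all genes. The CArG box stood in Egr2, Dusp5 and Zfp36 (10.7%, against 1.81%), and the EGR site in 8 genes (28.6%, against 3.31%). TATAAA was found in 7 genes (25.0%, against 15.7%) and GGAAGT in 8 (28.6%, against 26.5%), both closer to the shares of all genes. The AP-1 site TGANTCA was found in 0 of the 28, against 8.97%, which says only that these letters are not in this window. Median GC content was 63.3% in the members' promoters, against 52.7% in all promoters, and its part in these shares was not tested. Of the 16 genes with a promoter that the authors' table calls higher in ISC, 13 held TGACG, as did 1 of 5 called lower, Klf4, and 3 of 7 not called, Dusp5, Btg2 and Maff. The EGR site stood in 4 of the 16, 3 of the 5 and 1 of the 7. Since the genes were selected on that contrast, these splits are a description, were not tested, and nothing is read from them. A match describes the letters and does not show that a factor binds there.

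Most of the 36 genes stood higher in sorted ISC than in wild-type villus. Their median level was 26.9 RPKM in ISC and 8.36 RPKM in wild-type villus, and 33 genes reached 1 RPKM in ISC against 26 in wild-type villus. The authors' test covered all 36 and calls 24 higher, 5 lower and 7 neither. Over all 13007 tested genes, 32.3% were called higher and 30.5% lower in ISC. In wild-type villus, Fosl1, Egr2, Egr3, Nr4a1, Nr4a3, Dusp2, Klf2 and Ctgf lay under 0.246 RPKM, the lowest tested level of this comparison. All are called higher and entered the test only through their ISC value. Of 27 members that reach the Eed-null comparison's lowest tested level in wild-type villus, 15 are called higher, 5 lower and 7 neither. Of 11785 tested genes at or above that level, 3484 are called higher and 3973 lower. Since the genes were selected on this contrast, nothing is read from those counts. The 5 called lower were Fosl2, Dusp6, Klf4, Klf6 and Socs3, and the 7 not called were Jund, Dusp5, Zfp36, Btg2, Maff, Rhob and Gadd45g. In bulk RNA, more cells that express a gene and more RNA per cell cannot be told apart. Scaling to 15 housekeeping genes would lower every ISC log2 ratio by 0.28, and scaling to the 9854 genes that reached 1 RPKM in ISC and in wild-type villus would raise it by 0.02. Both leave the called genes on their side of 0.

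**Figure D1:**
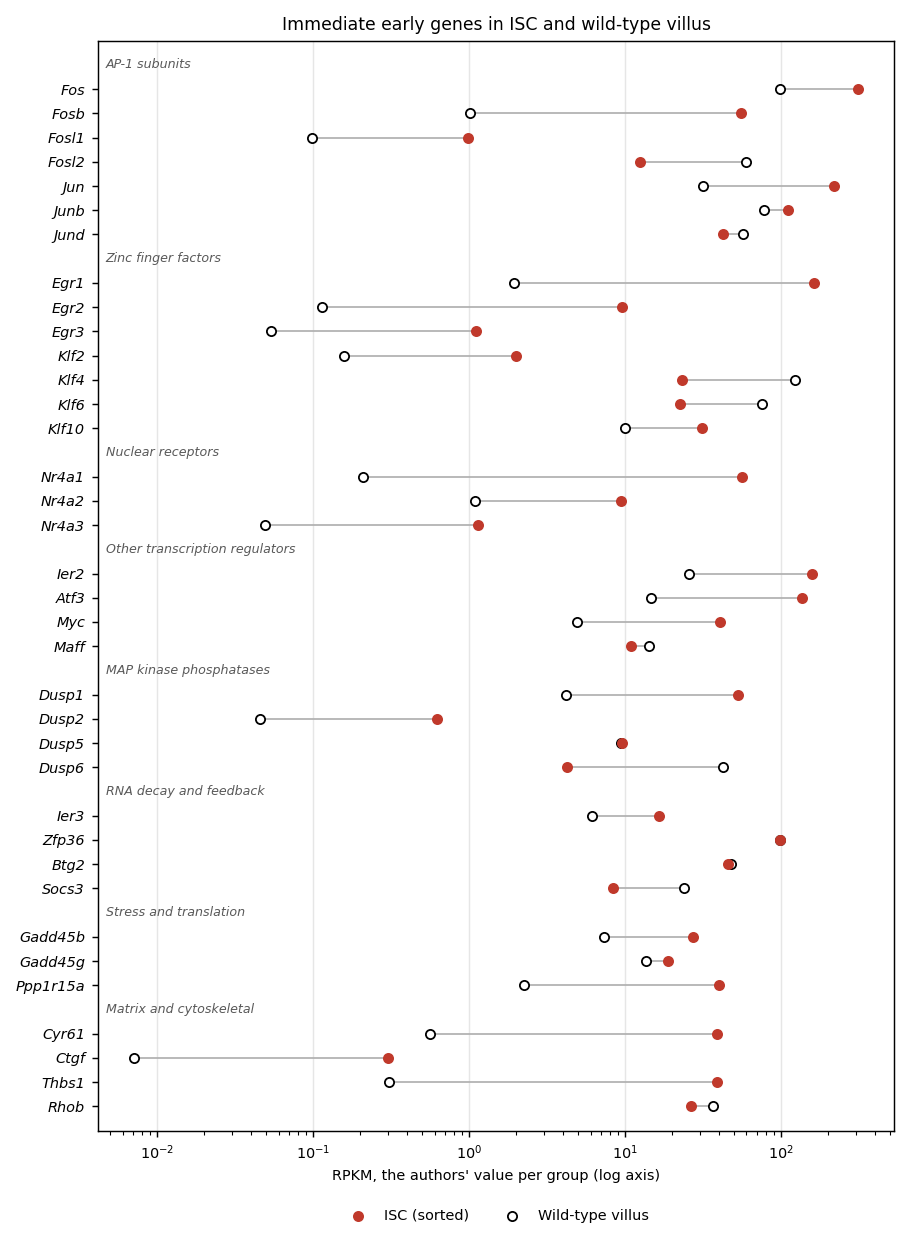
Level of each gene in RPKM on a log axis, with the authors' value for ISC as a filled red point and for wild-type villus as an open point, grouped by role. Ctgf is lowest in both groups, Fos is highest in ISC at 312 RPKM and Klf4 highest in wild-type villus at 123 RPKM.

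The AP-1 subunits differed in composition as well as in level. Fos, the classic first responder, stood at 312 RPKM in ISC and 98.7 RPKM in wild-type villus, a ratio of 3.16. Fosb, its close relative, stood at 55.2 RPKM in ISC and 1.01 RPKM in wild-type villus, a ratio of 54.9. Fosl1 stayed under 1 RPKM in both, at 0.978 and 0.0984 RPKM in ISC and wild-type villus, and shares its entry with a neighbouring gene, so its value is uncertain. Fosl2, known as a slower and longer-lived partner, ran the other way, at 12.5 RPKM in ISC and 59.7 RPKM in wild-type villus. Within the Fos family, Fos and Fosb made up 82.0% and 14.5% of the summed RPKM in ISC, and Fosl2 3.27%. In wild-type villus Fosl2 made up 37.4% and Fosb 0.63%. Jun moved as Fos did, at 218 RPKM in ISC and 31.6 RPKM in wild-type villus. Junb was 111 RPKM in ISC and 77.8 RPKM in wild-type villus, and Jund, known as the steadily expressed member, 42.3 and 57.1 RPKM in ISC and wild-type villus. Jun was thus 58.8% of the Jun family sum in ISC and 19.0% in wild-type villus, where Junb led with 46.7%.

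The zinc finger factors held some of the widest differences, in both directions. Egr1, a serum-response target and early growth response factor, stood at 163 RPKM in ISC and 1.93 RPKM in wild-type villus, a ratio of 84.6. Egr2 was 9.62 RPKM in ISC and 0.114 RPKM in wild-type villus, and Egr3 1.11 and 0.0534 RPKM in ISC and wild-type villus. Egr1 made up 93.8% of the Egr sum in ISC and 92.0% in wild-type villus, so the make-up of this family was nearly the same at very different levels. The Kruppel-like members split. Klf2, best known from endothelium and lymphocytes, was 2.00 RPKM in ISC and 0.158 RPKM in wild-type villus. Klf10, a TGF-beta-induced repressor, was 31.3 RPKM in ISC and 9.99 RPKM in wild-type villus. Klf4 was 23.3 RPKM in ISC and 123 RPKM in wild-type villus, and Klf6 22.6 and 74.9 RPKM in ISC and wild-type villus. Klf4 was the highest of all 36 genes in wild-type villus. In ISC, Klf10 led the 4 Kruppel-like members with 39.5% of their sum, against 4.80% in wild-type villus.

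The Nr4a genes encode orphan nuclear receptors whose activity follows their amount. Without a pseudocount, Nr4a1 had the widest ratio of the 36, at 56.2 RPKM in ISC and 0.210 RPKM in wild-type villus, a ratio of 268. That villus value is under the lowest tested level of this comparison, so the size of the ratio is uncertain. With a pseudocount of 1 RPKM its log2 ratio was 5.56 in place of 8.07, under the 5.81 of Egr1. Nr4a2 was 9.43 RPKM in ISC and 1.10 RPKM in wild-type villus. Nr4a3 was 1.13 RPKM in ISC and 0.0492 RPKM in wild-type villus. The leading receptor changed: Nr4a1 was 84.2% of the family sum in ISC, whereas Nr4a2 was 80.9% in wild-type villus.

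Of the other transcription regulators, Ier2 was 157 RPKM in ISC and 25.5 RPKM in wild-type villus. Atf3, a stress-induced repressor of the ATF family, was 136 RPKM in ISC and 14.8 RPKM in wild-type villus. Myc, a growth regulator and Wnt target of crypts, was 40.9 RPKM in ISC and 4.91 RPKM in wild-type villus. All 3 were several-fold higher in ISC, while Maff, a small Maf protein that lacks an activation domain, was 11.0 RPKM in ISC and 14.1 RPKM in wild-type villus.

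The feedback genes did not move as a block. Dusp1, a nuclear phosphatase of p38 and JNK, was 52.7 RPKM in ISC and 4.17 RPKM in wild-type villus. Dusp6, the cytoplasmic ERK phosphatase, was 4.21 RPKM in ISC and 42.3 RPKM in wild-type villus, a ratio of 0.0995. Dusp5 was 9.51 RPKM in ISC and 9.40 RPKM in wild-type villus. The leading phosphatase of the 4 was Dusp1 in ISC, with 78.6% of their sum, and Dusp6 in wild-type villus, with 75.7%. Dusp2 stayed low, at 0.624 RPKM in ISC and 0.0457 RPKM in wild-type villus. Zfp36, whose protein binds AU-rich elements and speeds RNA decay, was 98.5 RPKM in ISC and 99.0 RPKM in wild-type villus. Btg2, an antiproliferative partner of the deadenylase complex, was 45.6 RPKM in ISC and 48.0 RPKM in wild-type villus. These 2 sat at nearly equal levels in both groups. Socs3, the feedback inhibitor of cytokine signalling through STAT3, was 8.32 RPKM in ISC and 23.7 RPKM in wild-type villus. Ier3, a survival and ERK regulator, was 16.6 RPKM in ISC and 6.13 RPKM in wild-type villus.

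Among the stress genes, Ppp1r15a, which recruits phosphatase 1 to restore translation after stress, was 39.7 RPKM in ISC and 2.25 RPKM in wild-type villus. Gadd45b was 27.2 RPKM in ISC and 7.32 RPKM in wild-type villus, and Gadd45g 18.9 and 13.6 RPKM in ISC and wild-type villus. Both encode activators of the stress kinases upstream of p38 and JNK. Of the secreted matricellular proteins, Thbs1 was 38.7 RPKM in ISC and 0.305 RPKM in wild-type villus, a ratio of 127. Cyr61, a target of YAP and of serum response factor, was 38.8 RPKM in ISC and 0.558 RPKM in wild-type villus, a ratio of 69.6. Ctgf, its relative, stayed low at 0.300 RPKM in ISC and 0.00709 RPKM in wild-type villus, so a high ratio of 42.3 rests on values near 0. Rhob, a small GTPase of endosomes and actin, was 26.6 RPKM in ISC and 36.4 RPKM in wild-type villus.

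**Figure D2:**
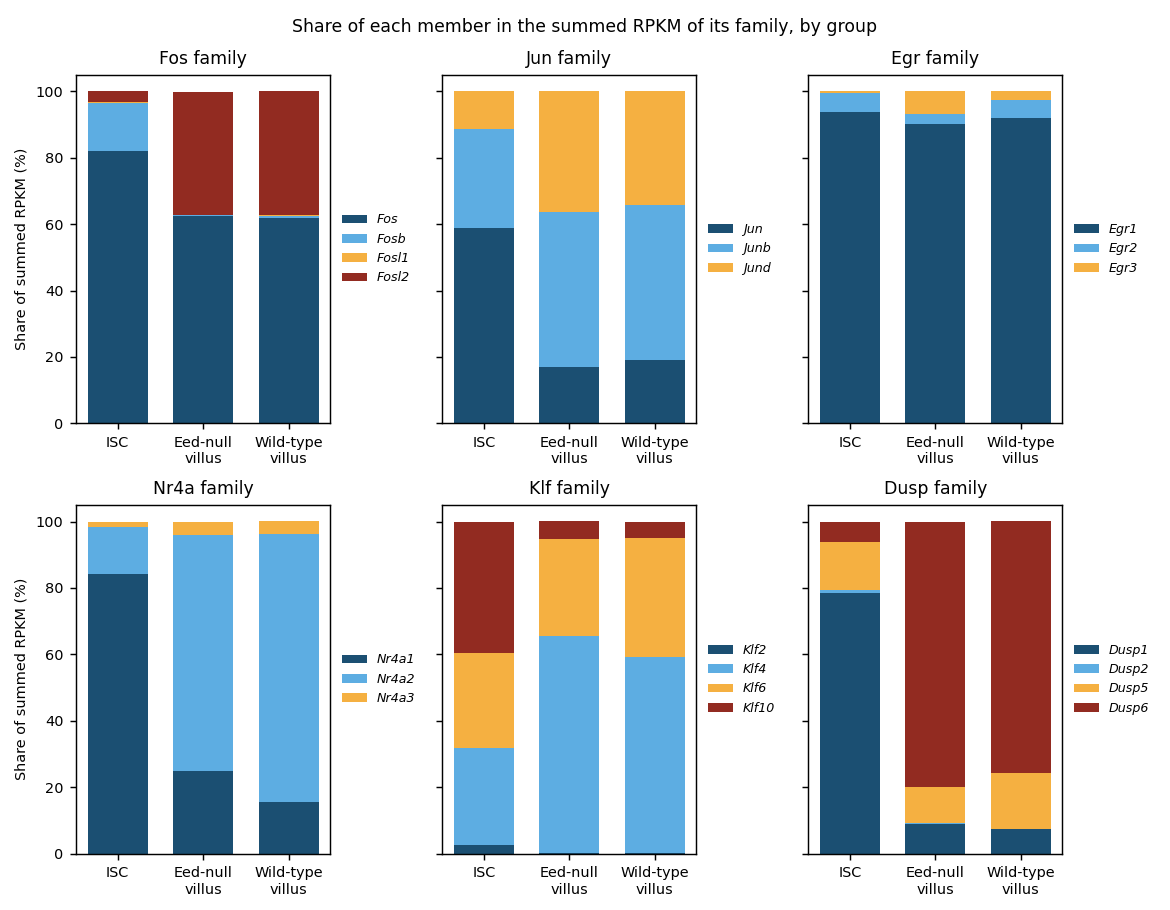
Share of each member in the summed RPKM of 6 gene families, in percent, for ISC, Eed-null villus and wild-type villus, with 1 stacked bar per group from the authors' value. Bars of Eed-null and wild-type villus resemble each other in each family, whereas in ISC the leading member is another one in the Jun, Nr4a, Klf and Dusp families.

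The genes were picked on ISC over the same wild-type villus libraries that are the reference of the Eed-null comparison. A low value in those libraries raises both ratios, so the Eed-null counts below are not free of that choice. Both villus groups were frozen after the same EDTA step without enzyme or sorting. Eed itself was 3.00 RPKM in Eed-null villus and 9.17 RPKM in wild-type villus (authors' deposited table, q = 6.29e-06). Of the 36 genes, 29 were tested, and Eed-null villus had 9 of the 29 called higher and 0 called lower. Over all 12525 tested genes, 7.9% were called higher and 3.46% lower. At an unadjusted p under 0.05 in the authors' test, 15 of the 29 were higher and 0 lower, against 12.3% and 8.82% of all tested genes. The 9 were Egr1, Nr4a1, Nr4a2, Dusp1, Dusp6, Btg2, Socs3, Rhob and Gadd45b. Log2 ratios over the 29 had a median of 0.55, with 25 above 0, while over all tested genes the median was -0.08 and 5297 of 12525 were above 0.

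Nr4a1 and Klf2 lay under the lowest tested level, 0.351 RPKM, in wild-type villus and entered the test only through their Eed-null value. Of the 27 members at or above that level in wild-type villus, 8 were called higher, against 5.23% of all such genes. At an unadjusted p under 0.05, 13 of the 27 were higher and 0 lower, against 8.91% and 9.38% of all such genes. The 7 genes not tested were Fosl1, Egr2, Egr3, Nr4a3, Dusp2, Ctgf and Thbs1. Each lay below 0.351 RPKM in both villus groups, the highest being Thbs1, at 0.337 RPKM in Eed-null villus. Scaling to the 10048 genes that reached 1 RPKM in both villus groups would raise every log2 ratio by 0.10.

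The AP-1 genes showed no call. Fos was 94.9 RPKM in Eed-null villus against 84.9 RPKM in wild-type villus, and Jun 25.0 and 27.2 RPKM in Eed-null and wild-type villus. Junb was 68.7 and 67.0 RPKM in Eed-null and wild-type villus. By the authors' test, 0 of 6 tested AP-1 genes were called, and 0 of 6 had an unadjusted p under 0.05. Over all tested genes, 7.9% were called higher and 3.46% lower, and 12.3% and 8.82% had such a p. With 6 genes, 0 calls is near those shares, so nothing is read from it. Fosb, at 0.619 RPKM in Eed-null villus against 0.865 RPKM in wild-type villus, had the lowest log2 ratio of the 29, -0.48 (authors' deposited table, q = 0.584). Fosl2 was 56.5 RPKM in Eed-null villus against 51.4 RPKM in wild-type villus, and Jund 53.4 and 49.2 RPKM in Eed-null and wild-type villus. Ier2 was 19.8 RPKM in Eed-null villus against 21.9 RPKM in wild-type villus, also not called.

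The called transcription factors were Egr1, Nr4a1 and Nr4a2, all at low levels. Egr1 was 3.36 RPKM in Eed-null villus against 1.66 RPKM in wild-type villus, a ratio of 2.02 (authors' deposited table, q = 0.0243). Nr4a1 was 0.736 RPKM in Eed-null villus against 0.180 RPKM in wild-type villus, a ratio of 4.08 (authors' deposited table, q = 0.00241). Nr4a2 was 2.10 RPKM in Eed-null villus against 0.943 RPKM in wild-type villus, a ratio of 2.22 (authors' deposited table, q = 0.0299). Even at their Eed-null value these 3 stayed at or below 3.36 RPKM, whereas the table with ISC lists them at 163, 56.2 and 9.43 RPKM there, on its own scale. Nr4a2 remained the leading receptor, with 71.1% of the family sum in Eed-null and 80.9% in wild-type villus.

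Of the feedback genes, 2 of 3 tested phosphatases and 2 of the 4 others were called higher, against 7.9% of all tested genes. With so few genes, nothing is read from these counts. Socs3 was 48.0 RPKM in Eed-null villus against 20.4 RPKM in wild-type villus, a ratio of 2.35 (authors' deposited table, q = 7.42e-06). Dusp6 was 57.9 RPKM in Eed-null villus against 36.4 RPKM in wild-type villus, a ratio of 1.59 (authors' deposited table, q = 0.0342). Both are called lower in ISC, so for them the directions of the comparisons are opposite. Btg2 was 66.9 RPKM in Eed-null villus against 41.3 RPKM in wild-type villus, a ratio of 1.62 (authors' deposited table, q = 0.0261). Dusp1 was 6.51 RPKM in Eed-null villus against 3.59 RPKM in wild-type villus, a ratio of 1.82 (authors' deposited table, q = 0.0498), just inside the threshold. Its call was lost under each filter on low values, with a readjusted q of 0.0526 to 0.0664. Zfp36, at 108 RPKM in Eed-null villus against 85.2 RPKM in wild-type villus, and Dusp5, at 7.85 and 8.09 RPKM in Eed-null and wild-type villus, were not called.

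Rhob and Gadd45b completed the list. Rhob was 74.1 RPKM in Eed-null villus against 31.4 RPKM in wild-type villus, a ratio of 2.36 (authors' deposited table, q = 2.94e-06), the lowest q of the 29. Gadd45b was 13.6 RPKM in Eed-null villus against 6.30 RPKM in wild-type villus, a ratio of 2.16 (authors' deposited table, q = 0.00353). A further 6 genes were higher at an unadjusted p under 0.05 but not called. They were Klf2, Gadd45g, Ppp1r15a, Myc, Atf3 and Klf4. Of these, Klf4 was 149 RPKM in Eed-null villus against 106 RPKM in wild-type villus (authors' deposited table, q = 0.203). Atf3 was 18.5 RPKM in Eed-null villus against 12.7 RPKM in wild-type villus (authors' deposited table, q = 0.162). Klf6 and Klf10 were 66.7 and 12.0 RPKM in Eed-null villus and 64.5 and 8.60 RPKM in wild-type villus. The stress genes Ppp1r15a and Gadd45g were 3.43 and 18.9 RPKM in Eed-null villus and 1.94 and 11.7 RPKM in wild-type villus, and Myc was 6.98 and 4.22 RPKM in Eed-null and wild-type villus. Klf2 stayed low, at 0.437 RPKM in Eed-null villus and 0.136 RPKM in wild-type villus. Ier3, Maff and Cyr61 were 5.93, 14.8 and 0.787 RPKM in Eed-null villus and 5.28, 12.2 and 0.480 RPKM in wild-type villus, and none of the 3 reached an unadjusted p under 0.05.

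**Figure D3:**
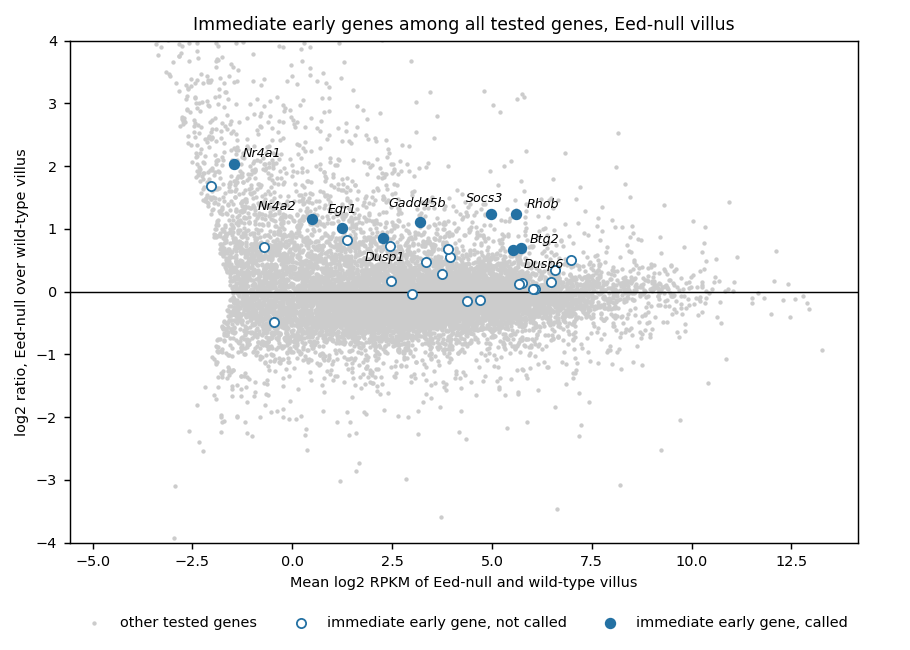
Log2 ratio of Eed-null over wild-type villus against the mean log2 RPKM of the groups for tested genes above 0 in both, with the immediate early genes in blue, filled where called. All 9 filled points lie above 0, between 0.67 for Dusp6 and 2.03 for Nr4a1. A further 134 tested genes lie beyond the vertical axis limits of 4.

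The calls of the comparisons are given side by side. Of the 24 genes called higher in ISC, 5 were called higher in Eed-null villus (Egr1, Nr4a1, Nr4a2, Dusp1 and Gadd45b), 12 were not called and 7 were not tested. Of the 5 called lower in ISC, Dusp6 and Socs3 were called higher in Eed-null villus. Of the 7 not called in ISC, Btg2 and Rhob were called higher in Eed-null villus. Fosb, Cyr61, Jun and Ier2, with ISC over villus ratios of 54.9, 69.6, 6.89 and 6.16, had Eed-null over wild-type ratios of 0.716, 1.64, 0.917 and 0.904. These counts describe the tables and were not tested, since both use the wild-type villus libraries. Over all 12525 tested genes, 7.9% were called higher in Eed-null villus. The same cross-count was not made over all genes, so nothing is read from the split by ISC call.

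**Figure D4:**
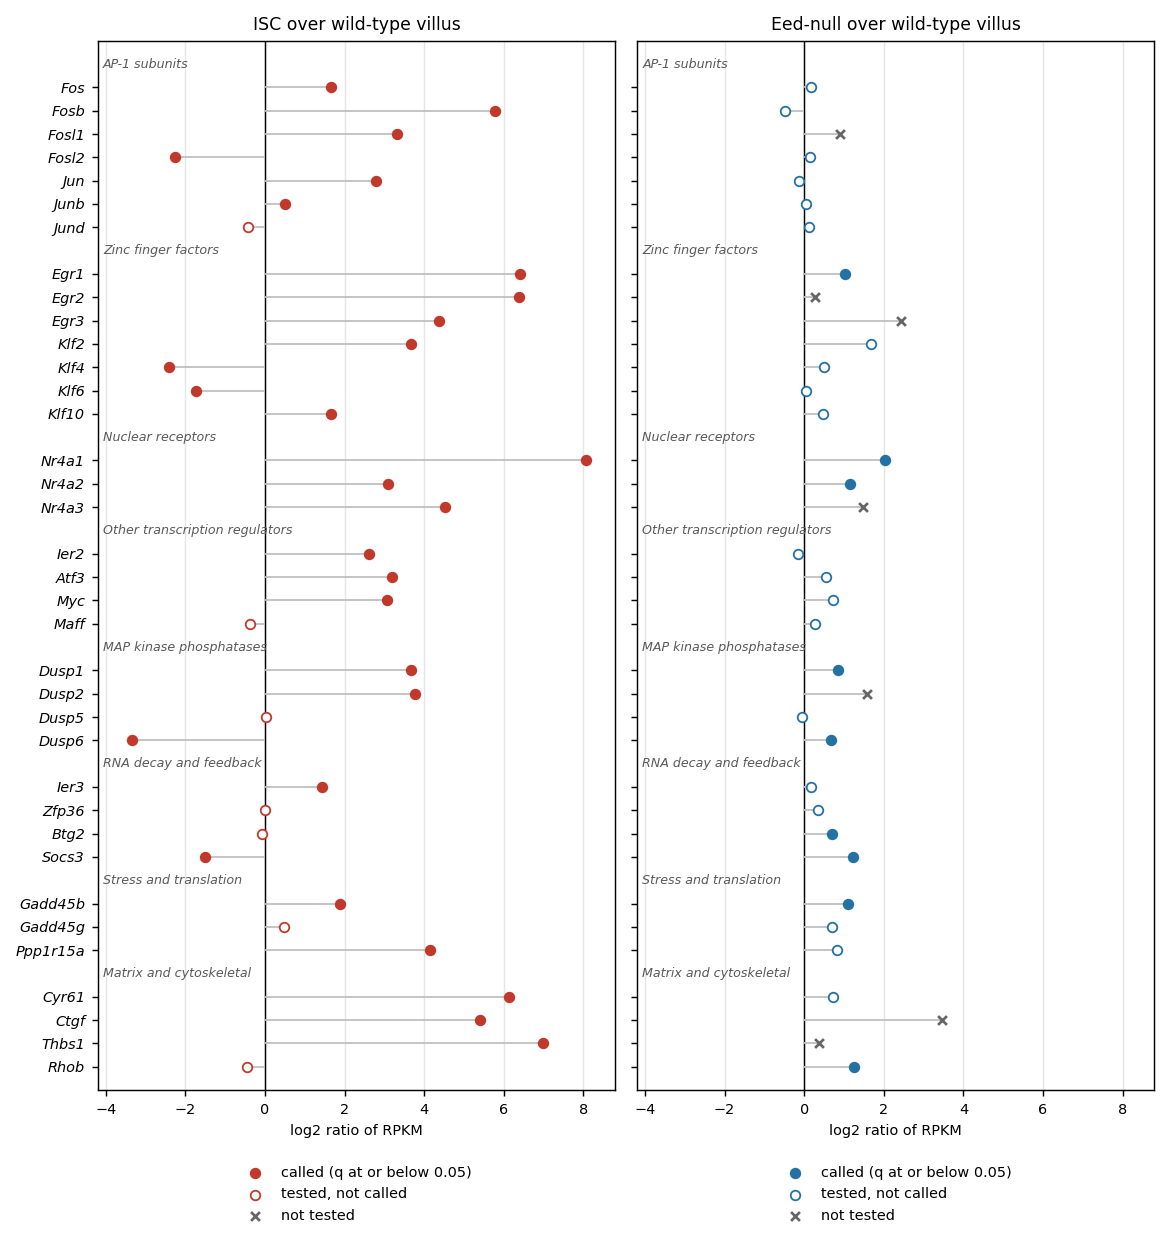
Log2 ratio of RPKM for each gene, ISC over wild-type villus on the left and Eed-null over wild-type villus on the right on the same axis range, with filled points for calls, open points for tested genes not called and crosses for genes not tested. Ratios run from -3.33 for Dusp6 to 8.07 for Nr4a1 on the left and from -0.48 for Fosb to 3.46 for Ctgf, which was not tested, on the right.

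Other genes of the response were taken as lists, and their counts are a description that was not tested. Over all tested genes, 32.3% were called higher and 30.5% lower in ISC, and 7.9% and 3.46% in Eed-null villus. At an unadjusted p under 0.05 in the authors' test, the Eed-null shares were 12.3% and 8.82%. The counts of the lists in this and the following paragraphs stand beside these shares. The upstream kinases and serum response factors, 22 genes, had 5 of 21 tested genes called higher and 7 lower in ISC. Among them Elk1, an ETS partner of serum response factor, was 1.92 RPKM in ISC and 0.633 RPKM in wild-type villus, while the ERK kinase gene Mapk3 was 77.1 RPKM in ISC and 239 RPKM in wild-type villus. In Eed-null villus 1 of 22 was called higher, Elk3, at 0.378 RPKM in Eed-null villus against 0.134 RPKM in wild-type villus (authors' deposited table, q = 0.0361), and 0 were called lower by the authors' q, with 4 higher and 2 lower at an unadjusted p under 0.05. The wild-type level of Elk3 is under the lowest tested level, and it was tested through its Eed-null value alone. Other AP-1 and ATF partners had 1 of 14 tested genes called higher and 6 lower in ISC. In Eed-null villus 1 of 14 was called, Jdp2, a repressive AP-1 partner, at 3.91 RPKM in Eed-null villus against 0.662 RPKM in wild-type villus (authors' deposited table, q = 7.99e-07).

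A list of 41 other stimulus-induced genes had 13 of 40 tested genes called higher and 11 lower in ISC, with a median log2 ratio of 0.07 against 0.10 over all tested genes. Its largest ratio was that of Arc, a gene best known from activated neurons, at 3.84 RPKM in ISC and 0.0303 RPKM in wild-type villus. In the other direction, Ptgs2, the inducible prostaglandin synthase, was 0.0149 RPKM in ISC and 0.477 RPKM in wild-type villus. In Eed-null villus 8 of 38 were called higher, and 0 were called lower, by the authors' q, with 11 higher and 1 lower at an unadjusted p under 0.05, against 12.3% and 8.82% of all tested genes. Plk2, a stress-responsive kinase, was 27.9 RPKM in Eed-null villus against 2.18 RPKM in wild-type villus. Dusp14, another dual-specificity phosphatase, was 3.34 RPKM in Eed-null villus against 0.892 RPKM in wild-type villus (authors' deposited table, q = 0.000184). Spry4, a feedback inhibitor of ERK signalling, was 2.93 RPKM in Eed-null villus against 0.284 RPKM in wild-type villus, and Arc 0.931 and 0.0261 RPKM in Eed-null and wild-type villus. Both had wild-type levels under the lowest tested level.

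Heat shock genes that recur in dissociation signatures had 7 of 13 called higher and 1 lower in ISC, with a median log2 ratio of 1.96. The shares of all tested genes were 32.3% and 30.5%, with a median of 0.10. Hspa1a and Hspa1b were 7.37 and 14.4 RPKM in ISC and 0.431 and 0.933 RPKM in wild-type villus, and because they are near-identical copies the split between them is uncertain. Hsp90ab1, a constitutive chaperone, was 888 RPKM in ISC and 168 RPKM in wild-type villus. In Eed-null villus 0 of these 13 were called by the authors' q, with 1 higher at an unadjusted p under 0.05, and the median log2 ratio was -0.01. The YAP and TEAD genes had 4 of 10 tested genes called higher and 2 lower in ISC, with Tead2 at 4.52 RPKM in ISC and 0.291 RPKM in wild-type villus and the kinase gene Lats2 at 0.235 and 4.59 RPKM in ISC and wild-type villus. In Eed-null villus 3 of 11 were called higher, Wwtr1, Tead4 and Ajuba, all below 0.7 RPKM in Eed-null villus and under the lowest tested level in wild-type villus. The Kruppel-like genes outside the 36 had 2 of 9 called higher and 2 lower in ISC, and 1 of 8, Klf15, was called lower in Eed-null villus, at 1.38 RPKM in Eed-null villus against 6.60 RPKM in wild-type villus. The 15 housekeeping genes had 4 called higher and 5 lower in ISC, and 1 and 1 in Eed-null villus.

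Markers checked the labels and the other cells that the samples could hold. Stem cell markers, 10 of 10 called higher, marked the ISC, where their sum was 3496 RPKM against 166 RPKM in wild-type villus, and 9 of 9 tested enterocyte markers were called lower, with sums of 756 RPKM in ISC and 33420 RPKM in wild-type villus without Apoa4, whose entry the authors' table marks as failed. The 4 tested Paneth markers were all called higher and summed to 6486 RPKM in ISC and 2626 RPKM in wild-type villus. Lyz1 and Defa24, listed at 0 in ISC, are marked in that table as having too many reads to estimate, so their 0 is no measurement and they are left out of the sums. Goblet markers summed to 2691 RPKM in ISC and 12320 RPKM in wild-type villus. Leukocyte markers, 6 of 8 called lower, summed to 261 RPKM in ISC and 292 RPKM in wild-type villus. Those sums hide the fall of most of the list, since 7 of the 8 log2 ratios were below 0, with a median of -2.35. Of the mesenchyme list, Vim alone was tested, at 7.72 RPKM in ISC and 1.36 RPKM in wild-type villus, and Col3a1 was listed at 0 in ISC, while the endothelial list summed to 0.286 RPKM in ISC and 0.331 RPKM in wild-type villus. Tuft and enteroendocrine lists summed to 5.87 and 225 RPKM in ISC and 29.3 and 238 RPKM in wild-type villus. The near-equal enteroendocrine sums hide differences, since 4 of the 6 markers were called higher in ISC and 1, Sct, lower. Without Sct the enteroendocrine sums were 205 RPKM in ISC and 127 RPKM in wild-type villus. Xist was 39.5 RPKM in ISC and 5.72 RPKM in wild-type villus, and Ddx3y and Eif2s3y were listed at 0 in ISC, so the sex of the mice cannot be told apart from cell type either.

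The same lists were summed in the villus groups. Enterocyte markers without Apoa4, again marked as failed, summed to 20760 RPKM in Eed-null villus against 28770 RPKM in wild-type villus, with 1 of 9, Lct, called lower. Most of that gap was Fabp2, which was not called, at 7122 RPKM in Eed-null villus against 13530 RPKM in wild-type villus. Without Fabp2 the sums were 13640 and 15240 RPKM in Eed-null and wild-type villus. Of the stem cell markers, Olfm4 was called lower, at 40.6 RPKM in Eed-null villus against 94.5 RPKM in wild-type villus (authors' deposited table, q = 6.18e-06). The other 9 were not called and summed to 56.7 and 48.4 RPKM in Eed-null and wild-type villus. Goblet markers, 2 of 6 called higher, summed to 14180 RPKM in Eed-null villus against 10610 RPKM in wild-type villus, and Paneth markers, 1 of 6 called higher, to 7971 and 6869 RPKM in Eed-null and wild-type villus. Without Ang4, the called gene, the Paneth sums were 6119 and 5965 RPKM in Eed-null and wild-type villus. Of 8 leukocyte markers, 1 was called lower, Gzmb, and 0 higher by the authors' q, and at an unadjusted p under 0.05 there were 2 higher and 3 lower. Their median log2 ratio was -0.49. Their sum was 368 RPKM in Eed-null villus against 251 RPKM in wild-type villus, and without Cd74, a gene of antigen presentation, 65.0 and 95.0 RPKM in Eed-null and wild-type villus. Enteroendocrine and tuft lists summed to 248 and 25.6 RPKM in Eed-null villus and 205 and 25.2 RPKM in wild-type villus. Mesenchyme and endothelium lists summed to 2.33 and 0.378 RPKM in Eed-null villus and 1.51 and 0.285 RPKM in wild-type villus. The part of these other cells in the calls of the immediate early genes was not tested.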

How the data were processed

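The 3 libraries of each group carry no strand information and were sequenced as 75 bp single-end reads, per the labels' protocols. The authors' deposited tables hold RPKM per gene and group, p-values and q-values, per the file headers. The second table names no unit; it was read as RPKM because its wild-type villus values equal those of the first divided by 1.16193 (1.16192 to 1.16194 over 10306 genes). The tables were therefore used separately. The submitters' processing notes name Bowtie, TopHat2 2.0.6, Cufflinks 2.0.1, Cuffdiff and build mm9, without roles, and with an annotation release not given in the sources used here.

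Each table has 22517 named genes, with 13007 and 12525 tested, and 1 unnamed entry that was left out. A Benjamini-Hochberg adjustment of the deposited p-values over tested genes gives the deposited q-values to within 8.02e-05. Log2 ratios of the deposited RPKM used no pseudocount. Python 3.11.15 with pandas 2.3.3, numpy 2.4.6 and matplotlib 3.10.9 was used, and the counting steps were tested on simulated data. Libraries within a group are biological replicates per the labels, but no value per library is given, so no model was fitted and the depth is unknown. The 36 genes and all lists were chosen with earlier results of these data known. All 36 were named, the largest called ratios of each list (up to 4 per comparison), and Eed; sex-linked genes, Col3a1 and other genes outside this rule were named after their values were seen. Calls were recounted at a stricter q, with filters on low RPKM and without genes that share a locus entry, and ratios with pseudocounts and other scalings. The other 14 samples of the series were not analysed here.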

Additional observations from a re-analysis of the deposited data

How the results depend on the processing

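No paired analysis was possible because the tables give 1 value per group and no replicate columns, and for the same reason leaving out a replicate could not be run; depth limits could not be set. In Eed-null villus, a q at or below 0.01 left 4 of the 9 genes called higher (Nr4a1, Socs3, Rhob and Gadd45b). With genes under 1 RPKM in both groups left out, 7 were called, with genes under 1 RPKM in either group left out, 6, and, in an alternative chosen after seeing the data, with genes under the lowest tested level in wild-type villus left out, 7. Dusp1 was called in none of these 4 (readjusted q of 0.0526 to 0.0664 under the 3 filters). Nr4a1 was below all 3 filters and Nr4a2 below the second. Leaving out genes that share a locus entry left 9, with Dusp1 at a readjusted q of 0.0451. Centred on housekeeping genes, the log2 ratio of Dusp5 in ISC, not called, was -0.27, against 0.02. In Eed-null villus the log2 ratio of Dusp5, not called, turned to 0.059 when centred on genes at 1 RPKM or more. In ISC, 14 genes were called higher with 1 RPKM required in both groups, and 21 to 23 under the other settings. The median log2 ratio of the 36 in ISC, 2.70, was 2.11 and 1.16 with pseudocounts of 0.1 and 1 RPKM, and 1.90 and 0.97 for genes at 1 RPKM or more in at least 1 group and in both groups; fewer genes and damped low values are part of how these were built. A pseudocount of 1 RPKM moved 13 ratios in ISC and 7 in Eed-null villus by over 1.5 times.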
